A study of Mus musculus with 4 samples.

Results

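Ataxins are proteins named for the spinocerebellar ataxias, inherited disorders in which Purkinje cells are lost or fail. The members examined were 9 mouse genes, Atxn1, Atxn1l, Atxn2, Atxn2l, Atxn3, Atxn7, Atxn7l3, Atxn10 and Cic, chosen by name, and every probe set whose annotation gave exactly 1 of these symbols was included. They gave 27 probe sets of the 45037 non-control probe sets on the array, and 9 of 18193 named genes. The samples were Purkinje cells, the output neurons of the cerebellar cortex, cut by laser from frozen cerebellum of intact male C57BL/6J mice aged 8 weeks. The labels do not state how cells were recognised for cutting. Each of 2 mice gave 2 samples, 1-1 and 1-2 from animal 1 and 2-1 and 2-2 from animal 2, and all 4 belong to 1 condition. Whether an animal's samples were cut separately is not stated, so p-values measure only the spread between these samples, which may be technical. Tissue of the granule cell layer, named in the series' design too, was not analysed here.

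Ataxin-1 is a nuclear protein that binds the repressor Capicua, the product of Cic, and its paralog ataxin-1-like, the product of Atxn1l, binds Capicua too. Ataxin-2 and its paralog, the product of Atxn2l, are cytoplasmic RNA-binding proteins of stress granules. Ataxin-3 is a deubiquitinase that works with the segregase VCP, ataxin-7 anchors the deubiquitinase module of the SAGA coactivator complex, and the Atxn7l3 product is an adaptor of that module. In patients a long polyglutamine tract in ataxin-1, ataxin-2, ataxin-3 or ataxin-7 causes disease, whereas in ATXN10 the expanded repeat lies in an intron. The mice studied here carried no such mutation by their labels.

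Each array gave 1 deposited signal per probe set, and the signals were quantile-normalized on the log2 scale. A probe set counted as above background when it passed, on all 4 arrays, a bound set by 77 measured genes specific to organs other than brain. That bound lay between 5.74 in sample 2-2 and 6.11 in sample 1-1 on the normalized log2 scale. By this rule 9 of the 27 member probe sets (33.3%) were above background, beside 16.6% of all probe sets. At least 1 probe set passed in 5 of the 9 genes (55.6%), beside 27.3% of all named genes. These 2 shares are not alike, because a gene with more probe sets can pass more easily. The members have 27 probe sets over 9 genes, and the array 34945 over 18193 named genes. The 5 member genes that passed were Atxn1, Atxn1l, Atxn2, Atxn7l3 and Atxn10. Every probe set passed in 1 of the 9 genes, Atxn7l3, which has a single probe set, beside 10.1% of all named genes. Atxn7 passed on 1 array, and Atxn2l, Atxn3 and Cic passed on none. A probe set under the bound has a signal that cannot be told from background here, which does not show that the transcript is absent. Levels are given below as mean ± SD over 2 animals, each the mean of its 2 samples. Probe sets differ in how strongly they respond to the same RNA, so no order of the genes by level is given. The genes of each list named for the highest signals were picked by rule, which does not rank amounts of RNA.

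**Figure D1:**
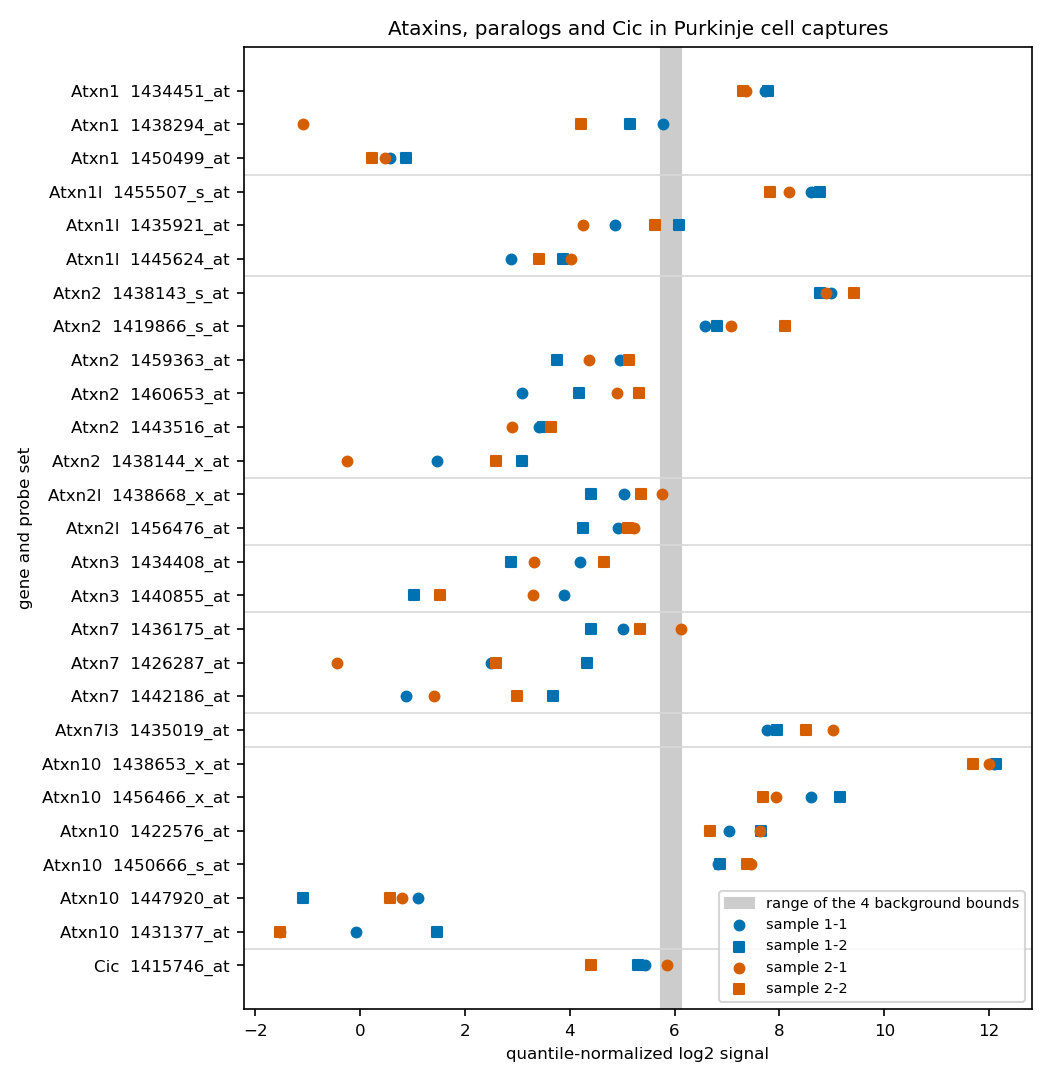
Quantile-normalized log2 signal (horizontal axis) of the 27 probe sets of the 9 genes (vertical axis), with 1 point per sample, animal 1 in blue and animal 2 in orange, the first sample of each as a circle and the other as a square, and the range of the 4 arrays' background bounds in grey. The 9 probe sets that lie to the right of the band in all 4 samples belong to Atxn1, Atxn1l, Atxn2, Atxn7l3 and Atxn10.

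The captures carried Purkinje cell RNA and some RNA of neighbouring cells. All 12 measured Purkinje markers were above background, among them Calb1, calbindin, and Pcp2, a G protein regulator. Of 11 measured granule cell markers 4 were above background (Zic1, Gabra6, Cbln1 and Neurod1), 2 passed on some arrays (Cbln3 and Reln), and Slc17a7, Pax6, Fat2, Zic2 and Grin2c passed on none. Bergmann glia and astrocyte markers were above background in 10 of 12 cases, Gfap passing on some arrays and Hes5 on none. Oligodendrocyte markers were above it in 3 of 9 cases (Cnp, Mbp and Olig1), interneuron markers in 2 of 8 (Lgi2 and Prkcd), microglia markers in 1 of 10 (Csf1r) and blood vessel markers in 1 of 10 (Rgs5). The summed linear normalized signal of the granule list ran from 4168 to 5153 in animal 1 and from 1885 to 2029 in animal 2. That of the Bergmann glia list ran from 13799 to 14098 and from 10541 to 11745, and that of the oligodendrocyte list from 4721 to 5006 and from 3399 to 4292. The sums of the microglia list (220 to 273 and 158 to 165) and the blood vessel list (273 to 320 and 158 to 214) were lower in animal 2 too. Those of the interneuron list (459 to 472 and 480 to 491) and the Purkinje list (77792 to 78771 and 86043 to 86279) were higher. A sum follows its brightest genes and includes signals under the bound. In the granule list all 6 markers tested on their brightest probe set were lower in animal 2, at a median log2 difference of -1.28. Zic1 on 1439627_at was called lower by the limma test given further on (-1.29), though not on deposited values (-0.84). In the Bergmann glia list 8 of 11 tested were lower. In some other lists markers above background did not all move with the sum. As log2 differences, animal 2 minus animal 1, Cnp stood at -0.69, but Mbp at 0.13 and Olig1 at 0.52. Rgs5 of the blood vessel list stood at 0.20. Of the interneuron markers above background Lgi2 stood at -0.81 and Prkcd at 0.67. Purkinje markers moved both ways too, but on their brightest probe sets only 2 of the 12 were lower in animal 2. Their median log2 difference was 0.19. By the same limma test Pcp2 on 1419085_at was called higher in animal 2 (0.57) and Calb1 on 1448738_at lower (-0.88). On deposited values Pcp2 was called too (1.00), but Calb1 on 1448738_at was not (-0.47). Gng13 stood at -0.21. The brightest Calb1 probe set, 1417504_at, had the same normalized signal of 13.68 in all 4 samples, so it cannot show a difference in the sum. Quantile normalization gives the same value to probe sets of the same rank. On deposited values 1417504_at was higher in animal 2, by 0.48. The part of other cells in the differences of members between the animals, given further on, was not tested. In such captures fewer cells of a type and less RNA per cell cannot be told apart.

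Atxn1, whose product gave the family its name, was above background on 1 of 3 probe sets, 1434451_at, at 7.54 ± 0.29 (SD, n = 2 animals). Its normalized log2 signals were 7.72 and 7.78 in samples 1-1 and 1-2 and 7.37 and 7.31 in samples 2-1 and 2-2. The samples of animal 1 lay above those of animal 2 on this scale. The deposited signals had the opposite order, from 172.2 in sample 1-1 and 181.1 in sample 1-2 to 184.7 in sample 2-1 and 212.5 in sample 2-2. The other probe sets, 1438294_at at 3.51 ± 2.76 and 1450499_at at 0.54 ± 0.27, stayed under the bound in every sample. The large SD of 1438294_at came with a deposited signal of 0.5 in sample 2-1, against 22.9 to 45.2 in the other samples.

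Atxn1l, the paralog that shares the Capicua partnership, was above background on 1 of 3 probe sets, 1455507_s_at, at 8.34 ± 0.49 (SD, n = 2 animals). The normalized log2 signals were 8.60 and 8.77 in animal 1 and 8.17 and 7.82 in animal 2, so the animals did not overlap, with animal 2 lower. A second probe set, 1435921_at, was designed from the same source sequence and stood at 5.21 ± 0.38. It passed the bound in sample 1-2 alone, by 0.26, and lay under it in the other samples. The third, 1445624_at, was under the bound throughout, at 3.54 ± 0.24.

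Cic, the high mobility group repressor with which both ataxins form a complex, has 1 probe set, 1415746_at, at 5.25 ± 0.17 (SD, n = 2 animals). Its normalized log2 signals were 5.44, 5.29, 5.85 and 4.40 in samples 1-1, 1-2, 2-1 and 2-2. All lay under the bound, in sample 2-1 by 0.05, the smallest distance of any member probe set that passed on no array. Of 14 measured ataxin-1 partners 10 were above background, 3 passed on some arrays (Sp1, Ubqln4 and Kat5), and Gfi1, a zinc finger repressor, passed on none, at 2.38 ± 0.44. The highest signals were those of the 14-3-3 gene Ywhaq at 12.40 ± 0.01 and the nuclear receptor gene Rora at 11.86 ± 0.09. Rbm17, a splicing factor that binds ataxin-1, had signals of 6.54 to 7.17 over the samples, above background in each. Pum2, of the Pumilio family that binds target messenger RNAs, had 7.75 and 7.61 in animal 1 and 8.63 and 6.42 in animal 2, so the samples of animal 2 stood 2.21 apart. Rbm17 and Pum2 were chosen after their values were seen.

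Capicua binds an octamer close to its target genes, and targets known from other cells were measured beside Cic. Of 9 measured targets 3 were above background, namely Spred1 at 8.70 ± 0.02, Spry2 at 7.47 ± 1.23 and Etv5 at 6.15 ± 0.15 (SD, n = 2 animals). Spred1 and Spry2 encode inhibitors of Ras and MAP kinase signalling, and Etv5 an ETS transcription factor. On 1428142_at Etv5 passed the bound in sample 2-1 by only 0.003. Its other probe sets, 1420998_at and 1450082_s_at, passed on no array and, under the bound, were higher in animal 2. Spred2 passed on 2 arrays, and Dusp6, Ccnd1, Spry4, Etv4 and Dusp4 passed on none, with Dusp4 lowest at 0.55 ± 0.52. The octamer was searched as TGAATGAA, TGAATGGA, TCAATGAA and TCAATGGA, on both strands, in the 250 bases before each gene start in RefSeq (build GRCm38.p6). Of 32851 such windows 3.19% held at least 1 match. Of the targets 6 of 10 were matched in that table, with 8 windows, and 2 windows held the octamer, those of Dusp6 and Spry2. Of the members 8 of 9 were matched, with 11 windows, and 1 held it, a window of Atxn2. The 3 windows are shown because they hold every match found among targets and members, written 5′ to 3′ on the strand of the gene with the octamer, or its reverse complement, in capitals.
Dusp6, chr10:99262981-99263230, plus strand: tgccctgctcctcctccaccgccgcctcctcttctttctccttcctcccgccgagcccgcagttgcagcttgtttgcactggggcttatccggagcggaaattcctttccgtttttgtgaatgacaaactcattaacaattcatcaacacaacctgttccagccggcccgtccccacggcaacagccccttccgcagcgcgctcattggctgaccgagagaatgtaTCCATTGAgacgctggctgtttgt
Spry2, chr14:105896820-105897069, minus strand: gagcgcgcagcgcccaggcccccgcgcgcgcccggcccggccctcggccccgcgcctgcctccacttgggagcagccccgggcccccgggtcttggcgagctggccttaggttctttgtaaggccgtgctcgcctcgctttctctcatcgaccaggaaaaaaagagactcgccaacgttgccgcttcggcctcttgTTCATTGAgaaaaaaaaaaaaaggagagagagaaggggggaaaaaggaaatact
Atxn2, chr5:121738282-121738531, plus strand: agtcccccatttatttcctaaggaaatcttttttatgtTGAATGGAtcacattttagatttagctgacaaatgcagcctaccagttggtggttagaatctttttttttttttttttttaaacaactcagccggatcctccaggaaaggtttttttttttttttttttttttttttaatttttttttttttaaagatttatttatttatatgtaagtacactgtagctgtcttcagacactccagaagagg
The match begins 24 bases before the gene start in Dusp6, 54 bases before it in Spry2 and 212 bases before it in Atxn2. The Atxn2 window belongs to the downstream one of 2 starts that the table lists, and it has a GC content of 28.8%. The other Atxn2 window held no match and has a GC content of 73.2%, against a median of 52.4% over all windows. A match is a description of letters and was not tested as a binding site.

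Dusp6 was under the bound at 5.54 ± 0.24 (SD, n = 2 animals). Spry2 was above it, with normalized log2 signals of 8.52 and 8.15 in animal 1 and 6.91 and 6.28 in animal 2 on probe set 1436584_at. Animal 2 was lower by this measure in both samples, and the difference of -1.74 ± 0.37 (SE, 2 samples per animal) did not pass the threshold (adjusted p = 0.103 by limma). On deposited values the Spry2 difference was -1.18 ± 0.37. Etv5 stood at -0.21 ± 0.49 and Spred1 at -0.03 ± 0.24 on their brightest probe sets, and both turned sign on deposited values, to 0.37 ± 0.55 and 0.48 ± 0.28. Spred2 entered the test only through animal 1, where both samples passed the bound, so its difference of -2.15 was favoured by that filter. None was called. The granule, glial and blood vessel lists were lower in animal 2 by the sums given above, and their part in these values was not tested.

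Atxn2 has 6 probe sets, of which 2 were above background. The brighter, 1438143_s_at, stood at 9.02 ± 0.19 (SD, n = 2 animals), with normalized log2 signals of 8.99 and 8.78 in animal 1 and 8.88 and 9.41 in animal 2. The animals overlapped on it. The other, 1419866_s_at, stood at 7.14 ± 0.64, with 6.57 and 6.80 in animal 1 and 7.07 and 8.10 in animal 2, so that animal 2 was higher in both samples and sample 2-2 highest. The deposited signals of 1419866_s_at ran from 77.4 in sample 1-1 to 363.8 in sample 2-2. The remaining 4 probe sets lay under the bound in all samples, at means of 1.72 to 4.55. One of them, 1438144_x_at, was designed from the same source sequence as 1438143_s_at but stood 7.29 lower on the log2 scale. Among the dim probe sets 1460653_at was also higher in both samples of animal 2, with 4.91 and 5.33 against 3.08 and 4.17, though under the bound throughout.

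Atxn2l was under the bound on both of its probe sets, which share a source sequence and gave close values, 5.14 ± 0.59 for 1438668_x_at and 4.88 ± 0.41 for 1456476_at (SD, n = 2 animals). On 1438668_x_at the normalized log2 signals were 5.04 and 4.41 in animal 1 and 5.76 and 5.35 in animal 2, the highest of them 0.15 under the bound of its array. Both probe sets were higher in animal 2 without overlap, in a range where signals are not told from background. Partners of ataxin-2 were above background in 8 of 12 cases. Sh3gl2, an endophilin of synaptic vesicle recycling, stood at 11.11 ± 0.17 and Caprin1, a stress granule protein, at 11.04 ± 0.42. Stau1 passed on 3 arrays, G3bp1 on 1, and Lsm12 and Sh3gl3 on none, with Sh3gl3 lowest at 3.19 ± 0.87. Pabpc1, the poly(A)-binding protein that ataxin-2 contacts, had 7.81 and 8.10 in animal 1 and 9.91 and 8.87 in animal 2. It was higher in animal 2 without overlap but not called (adjusted p = 0.146 by limma), and was chosen after its values were seen. Most of the list went the other way. On their brightest probe sets 6 of the 9 partners tested were lower in animal 2, with a median log2 difference of -0.48 over the 9. Tia1 stood at -1.42 (adjusted p = 0.146 by limma), and was not called either.

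Atxn3 was under the bound on both probe sets, 1434408_at at 3.77 ± 0.31 and 1440855_at at 2.44 ± 0.04 (SD, n = 2 animals). On 1434408_at the normalized log2 signals were 4.20 and 2.89 in animal 1 and 3.33 and 4.65 in animal 2. The samples of 1 animal differed by 1.32 and 1.33, so the small SD between animals of 1440855_at, whose samples differed by 2.87 and 1.77 within animals, is no measure of precision. Of 10 measured partners 6 were above background. Nedd8, a ubiquitin-like modifier, stood at 9.36 ± 0.27, Stub1, the ubiquitin ligase CHIP, at 8.51 ± 0.45. Vcp, the segregase, had 8.11 and 7.66 in animal 1 and 8.80 and 8.90 in animal 2, again higher in animal 2 without overlap and not called (adjusted p = 0.168), and was chosen after its values were seen. Ufd1, Hdac6 and Nploc4 passed on some arrays, and Josd2, a deubiquitinase of the same Josephin family as ataxin-3, passed on none, at 3.59 ± 2.27.

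Atxn7 was not above background on any of its 3 probe sets by the rule of 4 arrays. The brightest, 1436175_at, stood at 5.23 ± 0.72 (SD, n = 2 animals), with normalized log2 signals of 5.02 and 4.41 in animal 1 and 6.12 and 5.34 in animal 2. It passed the bound in sample 2-1 alone, by 0.22. The others, 1426287_at and 1442186_at, stood at 2.24 ± 1.65 and 2.24 ± 0.05, under the bound in all samples.

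Atxn7l3, which couples the ubiquitin protease USP22 to SAGA, was above background on its single probe set, 1435019_at, at 8.31 ± 0.64 (SD, n = 2 animals). The normalized log2 signals were 7.76 and 7.96 in animal 1 and 9.02 and 8.51 in animal 2. The deposited signals were 178.0 and 205.6 in animal 1 and 559.2 and 479.7 in animal 2. Both samples of animal 2 lay above both of animal 1 on each scale. Of 20 other measured SAGA genes and ataxin-7 paralogs 8 were above background, 6 passed on some arrays and 6 on none. The highest signals were those of Atxn7l3b, a further Atxn7l3-like gene, at 10.03 ± 0.16, and Kat2b, an acetyltransferase, at 9.54 ± 0.04, and the lowest that of Atxn7l2 at 1.88 ± 0.52. Usp22 stood at 7.99 ± 0.47 and Eny2, another subunit of the module, at 7.12 ± 0.54, both chosen after their values were seen.

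Atxn10, a gene unrelated in sequence to the other ataxins and needed for the survival of cultured neurons, was above background on 4 of 6 probe sets. The brightest, 1438653_x_at, stood at 11.98 ± 0.19 (SD, n = 2 animals), with normalized log2 signals of 12.10 and 12.13 in animal 1 and 12.00 and 11.70 in animal 2. Its deposited signals were 3842.0, 3866.3, 4321.7 and 4089.0 in samples 1-1, 1-2, 2-1 and 2-2. On 1456466_x_at, at 8.35 ± 0.75, the signals were 8.61 and 9.15 in animal 1 and 7.94 and 7.69 in animal 2. Both of these probe sets were lower in animal 2 without overlap, and both carry the suffix of probes that can bind other transcripts.

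The other bright Atxn10 probe sets, 1422576_at at 7.25 ± 0.13 and 1450666_s_at at 7.13 ± 0.41 (SD, n = 2 animals), were designed from 1 source sequence and their means differed by 0.12. Between the animals they did not move alike. On 1422576_at the normalized log2 signals were 7.04 and 7.65 in animal 1 and 7.64 and 6.68 in animal 2, which overlap. On 1450666_s_at they were 6.83 and 6.86 in animal 1 and 7.46 and 7.38 in animal 2, which do not, with animal 2 higher. The last 2 probe sets, 1447920_at and 1431377_at, lay near the floor at 0.34 ± 0.48 and -0.42 ± 1.57. Of 6 measured ataxin-10 partners 1 was above background, Ogt, the enzyme that adds N-acetylglucosamine to proteins, at 9.39 ± 0.05. Gnb2 passed on 1 array, and Iqcb1 and the mitotic genes Plk1, Aurkb and Kif20a passed on none, with Kif20a lowest at -1.19 ± 0.77.

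Among the 27 probe sets, whether a signal was above background went with the type of probe set. All 4 member probe sets ending in _s_at, whose probes match several transcripts, were above background, beside 35.0% of all such probe sets. Of 4 ending in _x_at, whose probes can cross-hybridize, 2 were above, beside 36.1%. Of 19 plain _at probe sets 3 were above, beside 12.8%. The 3 were those of Atxn1, Atxn7l3 and one of Atxn10, so the levels of Atxn1l and Atxn2 rest on probe sets that may bind other transcripts. Without the _s_at, _x_at and _a_at probe sets, 3 of 9 member genes were above background. Probe sets of 1 gene often disagreed. All 4 member genes with several probe sets and 1 above background also had at least 1 that passed on no array, as did 71.8% of the 3637 such genes on the array.

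The animals were then compared, which is the only labelled difference among the samples. Both animals had the same strain, sex and age and no labelled treatment, so the comparison describes these samples. The test covered 10535 probe sets that passed the bound on 2 or more arrays, and 43 of them (0.408%) were called at an adjusted p under 0.05 by limma with Benjamini-Hochberg adjustment. Of the 27 member probe sets 9 could be tested, the same 9 that were above background on all 4 arrays, and 0 were called. At an unadjusted p under 0.05 there were 4 of 9 members (Atxn1l 1455507_s_at, Atxn7l3 1435019_at and Atxn10 1438653_x_at and 1456466_x_at), beside 18.1% of all probe sets tested. The samples of animal 2 lay above those of animal 1 without overlap for 3 members, beside 23.9% of all probe sets tested, and below them for 4, beside 25.7%.

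Atxn7l3 had a log2 difference of 0.90 ± 0.30, animal 2 minus animal 1 (SE, 2 samples per animal), with a 95% interval of 0.19 to 1.62 and an adjusted p of 0.196 by limma. Atxn2 stood at 0.90 ± 0.45 on 1419866_s_at (adjusted p = 0.346) and at 0.27 ± 0.26 on 1438143_s_at (adjusted p = 0.644). With negative differences were Atxn1l at -0.69 ± 0.28 (adjusted p = 0.263) and Atxn1 at -0.41 ± 0.31 (adjusted p = 0.535). The probe sets of Atxn10 had both signs. They stood at -1.06 ± 0.30 on 1456466_x_at (adjusted p = 0.163, the smallest of any member), -0.27 ± 0.11 on 1438653_x_at (adjusted p = 0.263), -0.18 ± 0.45 on 1422576_at and 0.58 ± 0.34 on 1450666_s_at. The median over the 9 members was -0.18, beside -0.05 over all probe sets tested.

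**Figure D2:**
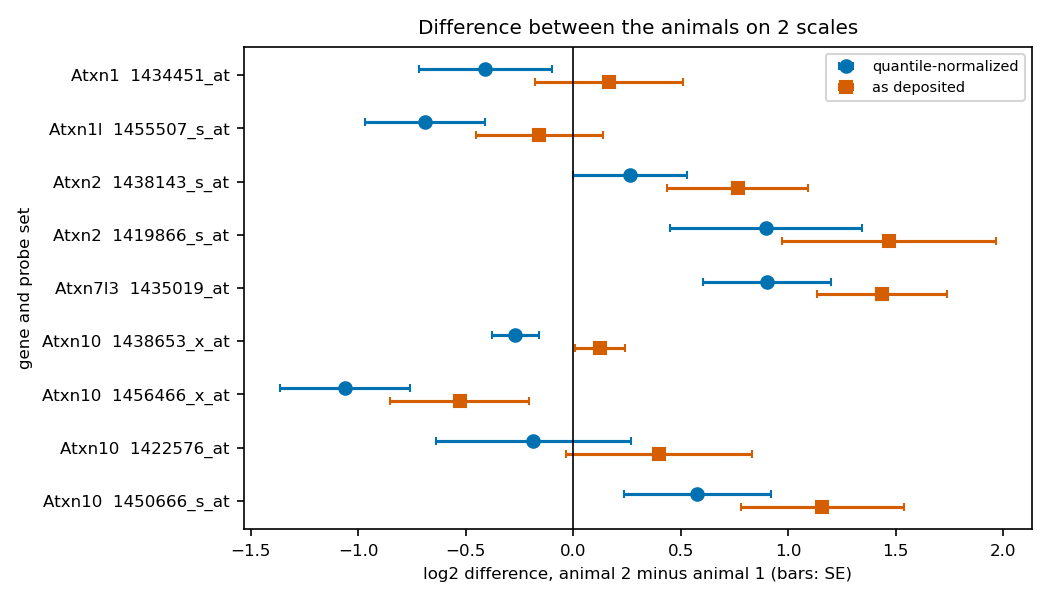
Log2 difference of animal 2 minus animal 1 (horizontal axis) for the 9 member probe sets tested (vertical axis), with quantile-normalized values as blue circles, deposited values as orange squares, and SE as bars. Each orange square lies to the right of its blue circle, and on the normalized scale 4 differences are positive and 5 negative.

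The sign of several members depended on the scale. On deposited values the median difference over all tested probe sets was 0.48, animal 2 being higher, and 7 of the 9 members had positive differences, with a median of 0.40. Atxn1 then stood at 0.17 ± 0.34 and Atxn10 at 0.13 ± 0.12 on 1438653_x_at and 0.40 ± 0.43 on 1422576_at (SE, n = 2 samples per animal), each with the sign turned. Atxn1l stayed negative at -0.16 ± 0.30, and so did Atxn10 on 1456466_x_at at -0.53 ± 0.32. Atxn7l3 was called on that scale, at 1.44 ± 0.30 (limma, adjusted p = 0.0405). There 6.02% of all probe sets tested were called, beside 0.408% on normalized values. Without sample 2-2 the normalized difference of Atxn7l3 was 1.16. Over the 11 alternatives run its difference ran from 0.65 to 1.44. In those on all 4 samples its adjusted p by limma ran from 0.0405 to 0.429. Atxn10 on 1438653_x_at stood at -0.42 without sample 2-1, with a range of -0.42 to 0.13 over the 11 alternatives. A fit without 1 sample leaves 1 animal with a single sample, so its calls are not read here.

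Atxn7l3b, measured on 5 probe sets, was looked at beside Atxn7l3 after the values were seen. Its 4 probe sets tested stood at 0.23 ± 0.19, 0.72 ± 0.34, 1.04 ± 0.31 and 1.60 ± 0.41 between the animals (SE, 2 samples per animal; limma, adjusted p from 0.138 to 0.585). The animals overlapped on the probe set at 0.23 and not on the others. As these probe sets measure 1 gene picked for its values, no count of them is set beside the share of all probe sets. The probe set at 1.60, 1428127_at, entered the test only through animal 2, where both samples passed the bound, so its difference was favoured by that filter. None was called. Usp22, the protease of the module, stood at 0.67 ± 0.29 on 1437151_at (adjusted p = 0.296 by limma), with 7.50 and 7.81 in animal 1 and 8.24 and 8.41 in animal 2. Eny2 had both signs, 0.76 on 1429411_a_at, 1.83 on 1460392_a_at and -1.42 on 1429410_at. Of these 1460392_a_at entered the test only through animal 2, and 1429410_at only through animal 1. Over the list of SAGA genes and ataxin-7 paralogs the median was 0.12 on the 11 brightest probe sets tested. Of those 4 were lower in animal 2, among them Taf10 at -0.59.

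Members varied between samples about as much as other probe sets within an animal. Over the 9 members above background the median absolute log2 difference was 0.20 between the samples of animal 1 and 0.36 between those of animal 2, beside 0.21 and 0.35 over all 7497 probe sets above background. Between 1 sample of each animal the median was 0.41 to 0.63 for members and 0.40 to 0.41 over all probe sets. The median SD over 2 animals was 0.41 for members and 0.24 for all, which was not tested.

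The genes around the members were compared between the animals in the same fit. Of 89 genes on 8 lists of partners, targets and related genes 78 were measured, and of their 105 probe sets tested 1 was called (0.952%, beside 0.408% of all), with 28 at an unadjusted p under 0.05 (26.7%, beside 18.1% of all). The called gene was Icmt, a methyltransferase known to be lowered in Purkinje cells of mice that carry a mutant ATXN1 transgene. It stood 1.30 ± 0.14 higher in animal 2 (SE, 2 samples per animal; adjusted p = 0.0362 by limma), with normalized log2 signals of 9.84 and 9.96 in animal 1 and 11.12 and 11.27 in animal 2. The call was lost without the mean-variance trend (adjusted p = 0.212 by limma) and with no filter (0.111). In the alternatives on all 4 samples the adjusted p ran from 0.00423 to 0.212. Over the 11 alternatives the difference ran from 1.22 to 1.75. The other measured genes of that list, Atp2a2, the calcium pump of the endoplasmic reticulum, and Inpp5a, an inositol phosphatase, were above background at 13.12 ± 0.09 and 10.80 ± 0.33 (SD, n = 2 animals). They were not called, but on these probe sets both were higher in animal 2, by 0.13 ± 0.05 and 0.47 ± 0.12 (SE). Other tested probe sets of Atp2a2 stood at 0.78 on 1452363_a_at (adjusted p = 0.0539 by limma), 0.08 on 1427250_at and -0.67 on 1437797_at. Of other genes in which polyglutamine tracts cause disease, Cacna1a, a calcium channel of Purkinje cells, stood at 8.58 ± 0.02 and Htt, huntingtin, at 6.37 ± 0.09, both above background. Tbp and Atn1 passed on no array, at 4.73 ± 0.35 and 3.09 ± 0.39.

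**Figure D3:**
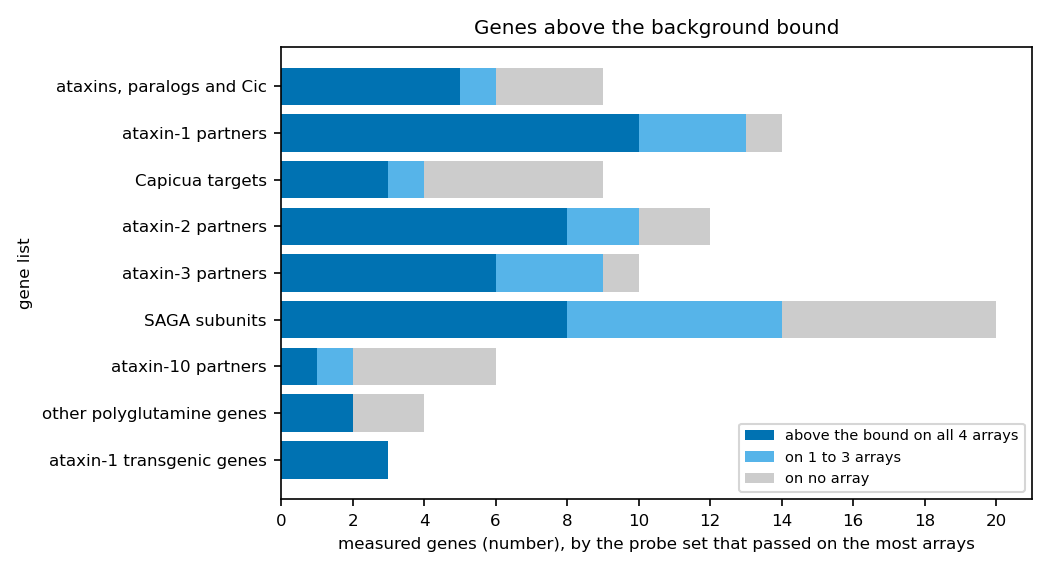
Number of measured genes (horizontal axis) of the members and of 8 lists of related genes (vertical axis), divided into those with a probe set above the background bound on all 4 arrays (dark blue), on 1 to 3 arrays (light blue) and on none (grey). Of the members 5 were above on all arrays, 1 on some and 3 on none, and of the ataxin-1 partners 10, 3 and 1.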

How the data were processed

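The authors deposited a linear intensity for each probe set on each array. It came from GCOS, the Affymetrix software, as given in the submitters' processing notes. The version of GCOS, its algorithm, scaling and detection calls, and any scan batches are not given in these sources. Per the labels' protocols, messenger RNA in about a nanogram of total RNA was amplified in 2 cycles. The platform annotation named 34945 probe sets by 1 gene symbol, 932 by several and 9160 by none, and 64 controls were dropped. Promoter sequences are RefSeq's, and protein sequences were not used here.

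A floor of 0.1 was applied before log2. Because the arrays' 2% trimmed means differed by 46.6% of their average, quantile normalization was applied (limma 3.58.1, R 4.3.3). As each array's bound, the 95th percentile over the brightest probe sets of 77 genes of other organs was used. Krt1, Krt10 and Tff1 of these passed it on all 4 arrays. For the comparison of animals, lmFit and eBayes (trend) left 2 residual degrees of freedom, and the false discovery rate was 0.05. The steps were tested on simulated data. Precision is limited by the number of arrays. Besides all member probe sets, for each of the 8 lists of related genes the 2 brightest genes, the dimmest, every called gene and every gene of a count of 5 or fewer were named, and a few others are said to be chosen after their values were seen. Of cell type markers, examples and the genes of most small counts were named. Members and lists were chosen with earlier results of these data known. Other bounds, scalings, filters and fits, a replicate block and leaving out each sample were tried. Dixon's test on the 27 member probe sets found 0 outlying samples.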

Additional observations from a re-analysis of the deposited data

How the results depend on the processing

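With the bound at the 90th or 99th percentile, from all probe sets of the background genes, on deposited or trimmed-mean scaled values, or without any 1 sample, 7 to 12 member probe sets and 5 to 7 member genes were above background. Without the _s_at, _x_at and _a_at probe sets these counts were 3 and 3. The number of probe sets called between the animals was 43 and moved to 634 on deposited values, 5 with no filter, 180 with the filter on all 4 arrays, 0 without the mean-variance trend (limma, 1902 at an unadjusted p under 0.05 in the reported fit) and 191 with the sample number as a replicate block. The labels do not say that this number pairs samples. Leaving out 1 sample gave 1 to 956 calls, and the spread then rests on the pair of 1 animal. Member calls were 0, except 1 on deposited values (Atxn7l3) and 0 to 1 without 1 sample. The replicate block changed no member call. Signs turned on deposited values for Atxn1 (0.17) and Atxn10 1438653_x_at (0.13) and 1422576_at (0.40), which the higher level of all probe sets in animal 2 accompanies. Without 1 sample, 1422576_at ran from -0.66 to 0.30, positive without 1-2 or 2-2, and Atxn2 1438143_s_at from -0.0013 (without 2-2) to 0.53. Of 99 member values under alternatives, 90 kept sign and call, 6 turned sign and 3 became called. Signals under the bound limit what can be said of Atxn2l, Atxn3, Atxn7 and Cic.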
